A study of Mus musculus with 6 samples.

Results

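The genes of the mitochondrial ribosomal proteins were followed in C2C12 cells, a mouse myoblast line, that were given PBS or 5-fluorouracil (5-FU). Members were the rows of the deposited expression table whose symbol begins with Mrpl or Mrps followed by a digit, with pseudogene symbols left out. This rule took 78 of 21899 genes, 51 of the large subunit, 26 of the small subunit and Mrps36. All 78 had enough counts to be tested, with 192 to 2185 estimated counts in a library.

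The mitochondrial ribosome makes the few respiratory chain proteins that the mitochondrial genome encodes. Its ribosomal RNAs come from that genome, whereas its proteins are encoded in the nucleus, made in the cytosol and imported. The small subunit binds the messenger RNA and reads the codons, and the large subunit joins the amino acids and passes the chain to the inner membrane. Some of its proteins descend from those of the bacterial ribosome and others are found in mitochondria only. Mrps36 carries a ribosomal name but is known as a subunit of the 2-oxoglutarate dehydrogenase complex, and it is counted here under neither subunit. Muscle cells have a high demand for respiration and raise their mitochondrial content when they differentiate.

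Messenger RNA was sequenced from 3 PBS libraries and 3 libraries of cells kept for 24 hours with 5-FU at 5 µg per L, a dose that the labels call metronomic. 5-FU is a pyrimidine analogue used against tumours, which blocks the making of thymidine nucleotides and is also built into RNA. The labels call the cells wild-type myocytes, give no treatment time for PBS and do not say whether replicates were separate cultures. C2C12 is a clonal line, so the 6 libraries share 1 genetic background. For 2 of the 5-FU libraries (replicates 2 and 3) the field for the line ends in different digits, but every title reads C2C12 and the titles were used. Libraries held about 19583300 to 23016700 estimated counts. The 8 genes listed as myoblast markers were Myod1, Myf5, Des, Cdh15, Chrna1, Itga7, Msc and Myog. All were tested, with summed levels of 3925 to 4051 TPM in PBS and 4314 to 5016 TPM in 5-FU. TPM is the authors' abundance, scaled by transcript length and to the same total in each library. The 9 markers of differentiated muscle summed to 1906 to 2359 TPM in PBS and 1911 to 3326 TPM in 5-FU and all were tested. The 12 markers of other cell types summed to at most 9.63 TPM, and 2 of them had no count in any library.

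No mitochondrial ribosomal protein gene changed with 5-FU at an adjusted p under 0.05 by edgeR's quasi-likelihood test, adjusted over all 12135 genes tested, where 7.14% of genes passed (3.87% higher and 3.26% lower in 5-FU). At an unadjusted p under 0.05 there were 13, of which 12 (15.4%) were lower and 1 (1.28%) was higher in 5-FU, against 11.1% and 12.7% of genes tested. That count of 13 was 6 without PBS replicate 2, PBS replicate 3 or 5-FU replicate 2, and 17 without PBS replicate 1 or 5-FU replicate 1. DESeq2 called 0 of the 78, with 6 at an unadjusted p under 0.05. The largest differences were small: the fitted log2 fold changes ran from -0.28 for Mrps28 to 0.25 for Mrps31. Most members leaned the same way, since 64 of 78 (82.1%) had a negative value, against 49.7% of all genes tested. The count was 55 of 78 without PBS replicate 3, and on log2(TPM + 1) it was 50 of 78, against 38.8% of all genes. The median log2 fold change was -0.069 over the members and 0.0012 over all genes tested, with quartiles of -0.10 and -0.020 for the members and -0.091 and 0.11 for all genes. The libraries of the groups did not overlap in 16 of the 78, against 29.3% of genes tested. In 13 (16.7%) all 5-FU libraries lay below all PBS libraries, against 14.2% of genes tested, so this share was near the background. In 3 (3.85%) all 5-FU libraries lay above, against 15% of genes tested. Without PBS replicate 1 Mrps28 passed (edgeR adjusted p = 0.0444), and without the other libraries in turn no member did. On log2(TPM + 1) limma called Mrps31 alone (adjusted p = 0.0491).

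The data set limits on how large a change could have gone unseen. The 95% interval of the log2 fold change reached a median of 0.15 to either side of the estimate over the members, from 0.10 for Mrpl17 to 0.27 for Mrpl55. It lay within a 1.5-fold change in either direction for all 78 genes, and within a 1.2-fold change for 58. For 65 it included 0. The widest reach downwards was that of Mrps28, to -0.46, and the widest upwards that of Mrps31, to 0.41. Replicates varied by a median coefficient of variation of 5.23% in PBS and 4.84% in 5-FU.

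**Figure D1:**
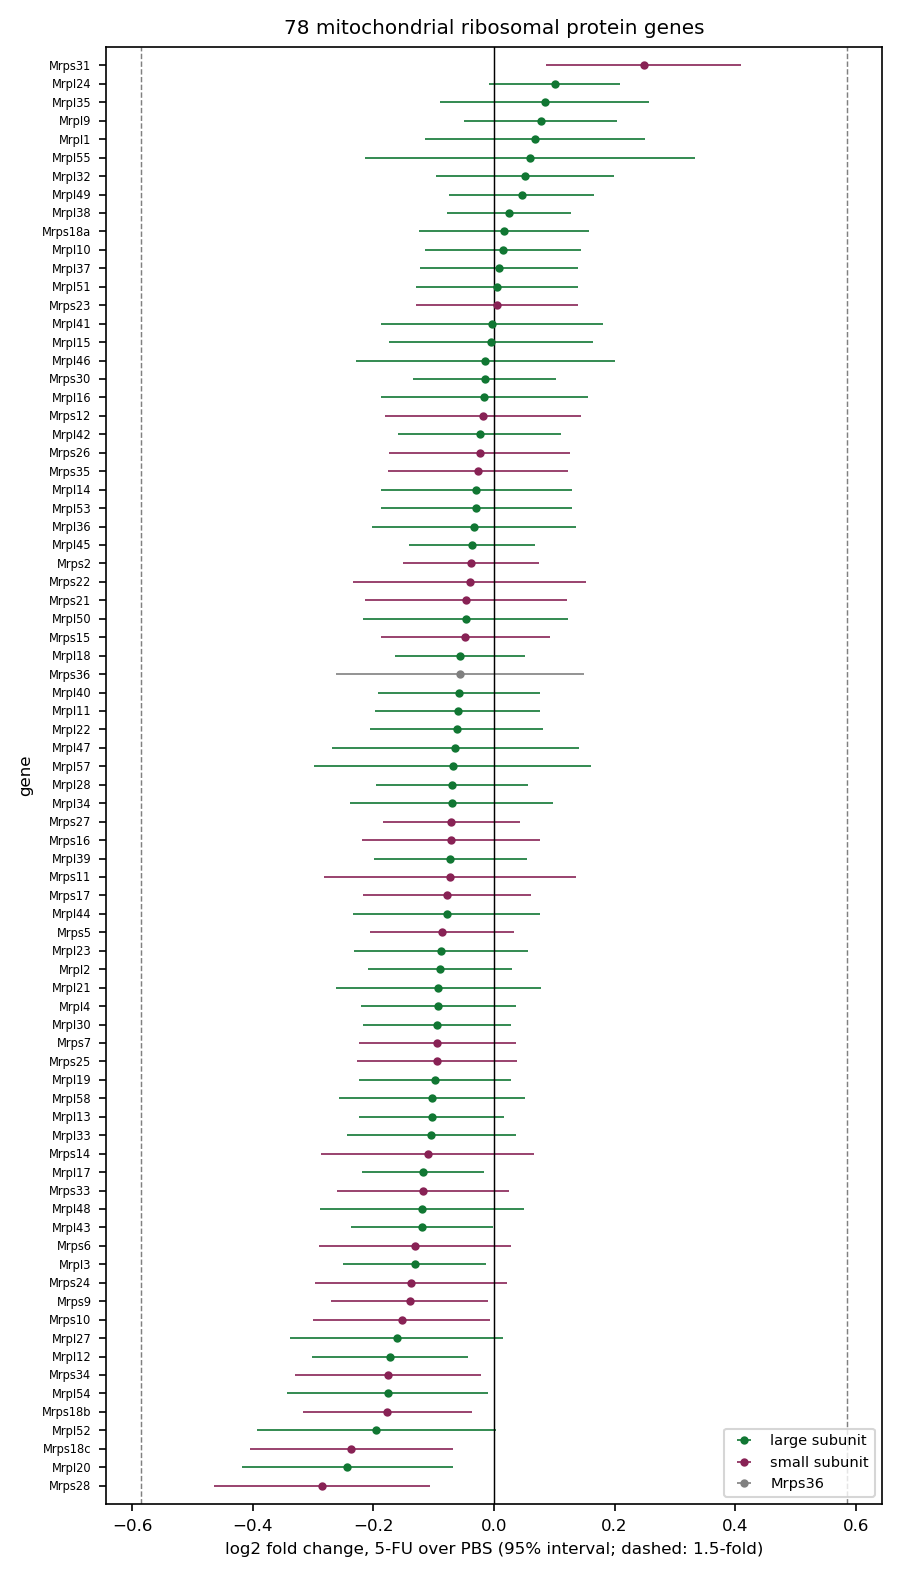
Log2 fold change of 5-FU over PBS for each of the 78 genes (edgeR; points, with 95% intervals as bars; 3 libraries per group), coloured by subunit, with dashed lines at a 1.5-fold change. All intervals lie inside the dashed lines, most points lie left of 0, and Mrps31 lies apart at 0.25.

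The level of the whole set varied from library to library within each group. Its summed level was 2983, 3109 and 3238 CPM (counts scaled to library size) in PBS replicates 1, 2 and 3 and 3095, 2890 and 2935 CPM in 5-FU replicates 1, 2 and 3. PBS replicate 1 thus lay below 5-FU replicate 1 and the groups overlapped, with means of 3110 ± 127 and 2973 ± 108 CPM (SD, n = 3). On the log2 scale, the median deviation of the members from their own means was -0.020, 0.038 and 0.092 in PBS and 0.024, -0.067 and -0.047 in 5-FU. Below their own mean were 13 of the 78 in PBS replicate 3 and 25 in 5-FU replicate 1, against 67 in 5-FU replicate 2 and 60 in 5-FU replicate 3. In PBS replicate 1 there were 50 below. In bulk RNA, fewer cells with a gene active and less RNA per cell cannot be told apart.

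The same order of libraries was seen for the cytosolic ribosomal proteins, but not in every gene list. The 79 genes of the cytosolic ribosomal proteins had median deviations of -0.021, 0.061 and 0.12 in PBS and 0.0061, -0.12 and -0.057 in 5-FU, which ranks the 6 libraries as the members do. The members are also short: their median transcript length was 1051.5 bases in GENCODE M21, against 2203 bases over the genes tested, and 46 of 78 were at most 1280.5 bases. Over the 3031 genes tested that were this short, whatever their function, the median deviation was -0.013, 0.013 and 0.049 in PBS and 0.015, -0.031 and -0.027 in 5-FU. PBS replicate 3 was highest and 5-FU replicates 2 and 3 lowest there too, at a smaller size. Other lists did not share the order of the members. In the 13 mitochondrially encoded genes 5-FU replicate 1 was lowest (-0.16), and 5-FU replicate 3 (0.11) lay near PBS replicate 3 (0.12). In the 30 mitoribosome assembly factors PBS replicate 3 was highest (0.033) but PBS replicate 1 lowest (-0.053). In the 19 mitochondrial translation factors 5-FU replicate 3 was highest (0.050). With offsets that remove each library's trend with transcript length and GC content, the median of the members was -0.046 and 58 of 78 were negative. Across the 78 members the log2 fold change correlated with log2 transcript length at Pearson's r = 0.29 and Spearman's rho = 0.26, a description over genes that share the same 6 libraries. Over all genes tested with a length these values were 0.14 and 0.17. Summed markers of cell state also set 1 library apart. The 9 markers of differentiated muscle summed to 3326 TPM in 5-FU replicate 2, the library lowest for the members. In each other library they summed to at most 2359 TPM. Mylpf (1588 TPM) and Acta1 (1272 TPM) made up most of the sum in 5-FU replicate 2. Both, and Tnnt3, Mb, Myh3 and Ckm, were highest there, whereas Myh1, Actn2 and Myh2 were highest in a PBS library. The 8 myoblast markers summed to 5016 TPM in 5-FU replicate 2, against 4427 and 4314 TPM in 5-FU replicates 1 and 3. Of the 8, 7 were higher and 1 was lower in 5-FU at an unadjusted p under 0.05 by edgeR. Over all genes tested 12.7% were higher and 11.1% lower at that level. Among the 9 markers of differentiated muscle 1 was higher and 3 were lower at that level. Of these, Myh2 was called lower (log2 fold change -1.07, edgeR adjusted p = 0.0249). Its level was low, at 15.24 to 46.53 estimated counts in a library and means of 0.577 TPM in PBS and 0.286 TPM in 5-FU. Of the 8 myoblast markers 1 was called higher (edgeR adjusted p = 0.0293). Called higher and lower were 3.87% and 3.26% of all genes tested. Without 5-FU replicate 2 the median of the members was -0.055 and 56 of 78 were negative. The part of cell state in the order of the libraries was not tested.

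**Figure D2:**
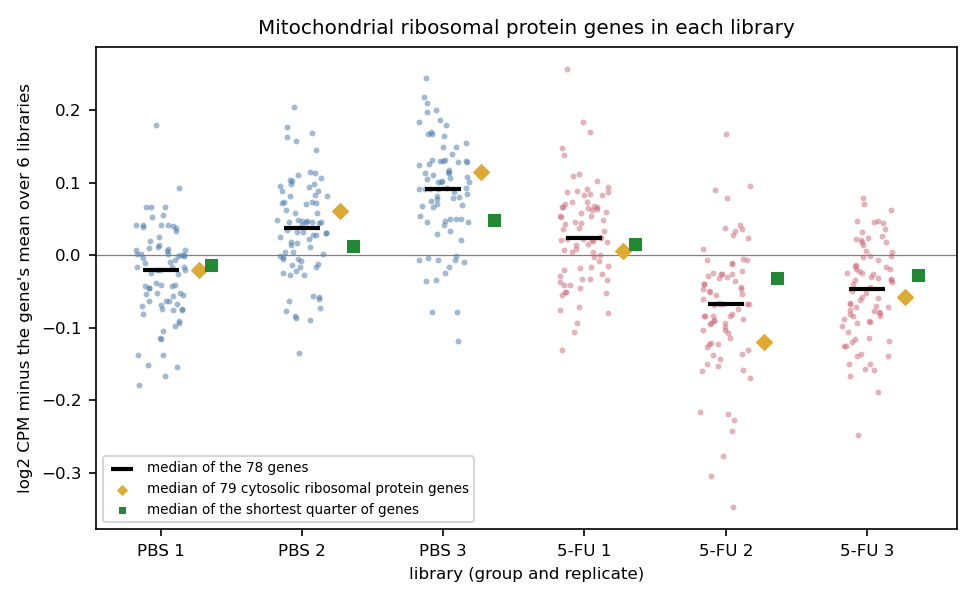
Log2 CPM of each of the 78 genes minus its mean over the 6 libraries (points), by library, with the median of the 78 genes (bars) and the medians of the 79 cytosolic ribosomal protein genes and of the 3031 shortest tested genes (symbols). PBS replicate 3 is highest at 0.092 and 5-FU replicate 2 lowest at -0.067, and 5-FU replicate 1 lies above PBS replicate 1.

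Of the small subunit, Mrps28 (ENSMUSG00000040269), the mitochondrial relative of bacterial protein S1, had the most negative value of the 78. It stood at 16.8, 19.0 and 19.9 CPM in PBS and at 15.3, 15.1 and 15.2 CPM in 5-FU. The groups did not overlap, and the 5-FU libraries were nearly equal while the PBS libraries spread. The log2 fold change was -0.28 (SE 0.082; edgeR adjusted p = 0.0599; 0.0264 to 0.187 over the alternatives). Mrps18c (ENSMUSG00000016833), 1 of 3 mammalian proteins named after bacterial S18, stood at 16.5, 15.5 and 15.4 CPM in PBS and at 13.6, 13.5 and 13.0 CPM in 5-FU. All 5-FU libraries lay below all PBS libraries (log2 fold change -0.24, SE 0.077; edgeR adjusted p = 0.0867; 0.0750 to 0.240 over the alternatives). Its namesake Mrps18b stood at -0.18 (edgeR adjusted p = 0.117), without overlap in CPM. In TPM 5-FU replicate 1 (80.0) lay just above PBS replicate 1 (79.9) for Mrps18b. The other namesake, Mrps18a, which sits in the large subunit, stood at 0.017 with overlapping groups.

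Mrps31 (ENSMUSG00000031533), a small subunit protein with no bacterial counterpart, was the only member with a positive value at an unadjusted p under 0.05. Its libraries stood at 16.8, 16.6 and 16.8 CPM in PBS and at 20.7, 20.5 and 18.4 CPM in 5-FU. The PBS libraries differed by an SD of 0.12 CPM, and all 5-FU libraries lay above them. The log2 fold change was 0.25 (SE 0.074; edgeR adjusted p = 0.0656; 0.0125 to 0.190 over the alternatives), and it passed the threshold in 4 of 16 alternatives. Of the other small subunit genes Mrps23 alone had a positive value (0.0050), and it was not called.

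Among small subunit genes with a well-defined place, Mrps12, which helps to read the codon, stood at 20.4 ± 0.41 CPM in PBS and 20.1 ± 1.5 CPM in 5-FU (SD, n = 3; log2 fold change -0.019). Mrps7 and Mrps9 belong to the head of the subunit and had values of -0.094 and -0.14, with Mrps9 without overlap between groups. Mrps2 (-0.038), Mrps5 (-0.086), Mrps14 (-0.11), Mrps16 (-0.072) and the mitochondria-specific Mrps22 (-0.040) and Mrps34 (-0.18) were not called either. Variants of MRPS16, MRPS22 and MRPS34 are known in humans as causes of mitochondrial disease. Of the 26 small subunit genes 24 were negative, with a median of -0.082. All 16 listed with a bacterial counterpart were negative, as were 8 of the 10 listed as mitochondria-specific, where Mrps18b was placed.

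Of the large subunit, Mrpl20 (ENSMUSG00000029066), the relative of bacterial L20, stood at 49.2, 55.2 and 56.5 CPM in PBS and at 47.4, 39.7 and 48.6 CPM in 5-FU. The groups did not overlap, but 5-FU replicate 3 and PBS replicate 1 lay close together, and 5-FU replicate 2 was lowest. The log2 fold change was -0.24 (SE 0.080; edgeR adjusted p = 0.0900; 0.0378 to 0.245 over the alternatives). Mrpl12 (ENSMUSG00000039640), a stalk protein that recruits translation factors and is also known to bind the mitochondrial RNA polymerase, stood at 92.5, 94.8 and 107 CPM in PBS and at 89.9, 82.9 and 87.7 CPM in 5-FU. PBS replicate 3 was highest, and the groups did not overlap (-0.17, SE 0.059; edgeR adjusted p = 0.0999; 0.0172 to 0.258 over the alternatives). Of the other stalk genes Mrpl10 (0.015), Mrpl11 (-0.060), Mrpl53 (-0.030) and Mrpl54 (-0.18) overlapped between groups, while in Mrpl1 (0.068) all 5-FU libraries lay above all PBS libraries at 11.6 to 11.8 against 10.8 to 11.4 CPM.

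Mrpl17 was the most tightly measured gene, at 59.1, 59.8 and 60.6 CPM in PBS and at 55.4, 54.3 and 55.7 CPM in 5-FU. Its groups were separate in CPM, by a log2 fold change of -0.12 (SE 0.046; edgeR adjusted p = 0.146). In TPM they overlapped, at 139, 153 and 145 in PBS and 131, 135 and 146 in 5-FU. Mrpl17 is 1 of 8 proteins listed around the exit tunnel of the nascent chain, where 7 were negative with a median of -0.068. Mrpl45, which tethers the ribosome to the inner membrane, stood at 57.3, 58.2 and 60.7 CPM in PBS and at 56.7, 57.7 and 57.5 CPM in 5-FU (-0.036). Mrpl22 (-0.062), Mrpl23 (-0.088) and the RNase III relative Mrpl44 (-0.078) also overlapped, and Mrpl24 had the second most positive value of the 78 (0.10, edgeR adjusted p = 0.246). The counts of Mrpl24 were not whole numbers, as happens where reads are shared with another gene.

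At the catalytic core, Mrpl3 stood at 54.8, 56.6 and 55.9 CPM in PBS and at 52.6, 47.7 and 52.3 CPM in 5-FU, without overlap (-0.13; edgeR adjusted p = 0.164). In TPM its groups overlapped, at 82.5, 87.0 and 88.5 in PBS and 88.2, 84.8 and 80.8 in 5-FU. The central protuberance, which faces the small subunit, had 8 of 10 negative values and a median of -0.057, from -0.20 for Mrpl52 to 0.060 for Mrpl55. Mrpl55 was the least certain member, at 11.1, 12.3 and 11.7 CPM in PBS and at 14.2, 9.77 and 12.5 CPM in 5-FU. Its 5-FU libraries surrounded the PBS libraries. Other positive values were those of Mrpl9 (0.077) and Mrpl35 (0.084), and in Mrpl35 the 5-FU libraries, at 14.1 to 14.2 CPM, lay just above the PBS libraries, at 13.0 to 14.1 CPM. Of the 51 large subunit genes 39 were negative, with a median of -0.060. These were 23 of 30 listed with a bacterial counterpart and 16 of 21 listed as mitochondria-specific, where Mrps18a was placed. Whether the subunits or the origins differ in their response was not tested.

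**Figure D3:**
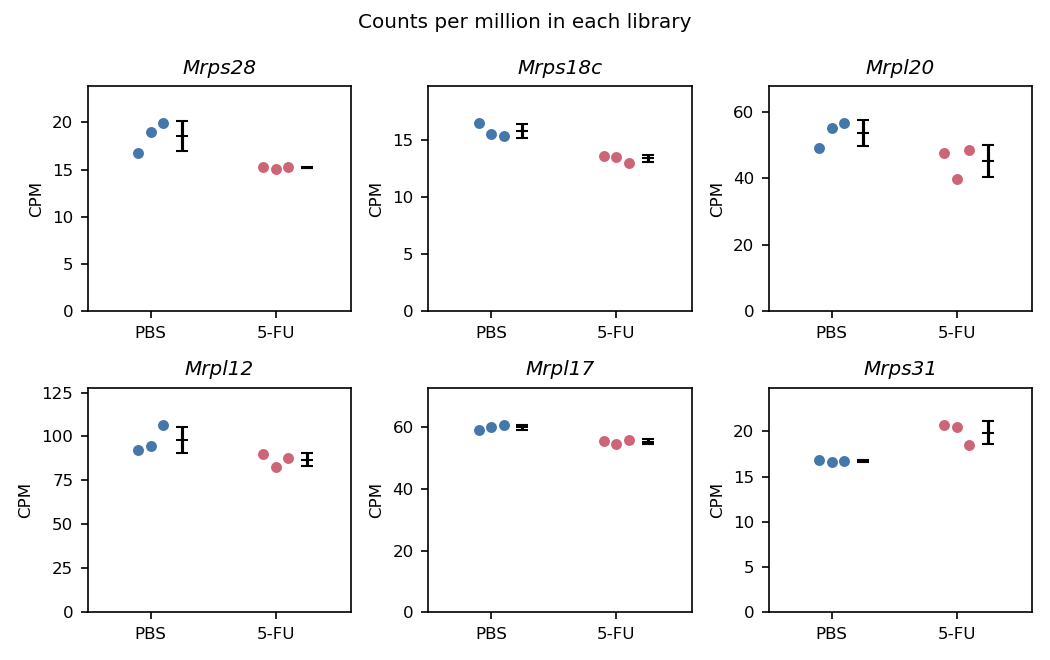
CPM in each library (points) with mean and SD (black) for Mrps28, Mrps18c, Mrpl20, Mrpl12, Mrpl17 and Mrps31, 3 libraries per group, axes from 0. The 5-FU points lie below the PBS points in the first 5 genes and above them in Mrps31, where PBS lies near 16.7 CPM and 5-FU at 18.4 to 20.7 CPM.

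Levels per transcript length differed far more between members than between treatments. Mean TPM over the 6 libraries ran from 7.08 for Mrpl47 to 200.4 for Mrpl33, with a median of 63.7. Highest were Mrpl33, Mrps21, Mrpl14, Mrpl30, Mrpl17 and Mrpl12, which held 18.3% of the summed TPM of the 78 genes. Mrpl33 stood at 191, 211 and 212 TPM in PBS and at 203, 194 and 191 TPM in 5-FU, and Mrps21 at 183, 205 and 208 TPM in PBS and at 210, 181 and 209 TPM in 5-FU. These 2 overlapped, so their order was not fixed, while both lay above every library of the third, Mrpl14 (156 to 179 TPM). Lowest were Mrpl47, Mrpl1, Mrpl57, Mrps35, Mrpl19 and Mrps26. Their median transcripts in GENCODE M21 were 2246.5 to 5000 bases long, against 405 to 1316 bases for the 6 highest, and a TPM depends on the transcript models that the authors used. By counts these 6 ranged more widely, from 11.2 ± 0.29 CPM for Mrpl1 and 12.2 ± 0.80 CPM for Mrpl47 to 34.5 ± 1.5 CPM for Mrpl19 in PBS (SD, n = 3).

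The ranking by level was nearly the same in both treatments: the mean TPM of the 2 groups correlated across the 78 genes at Pearson's r = 0.997 on the log2 scale and Spearman's rho = 0.996, a description over genes of the same libraries. The summed TPM of the small subunit was 0.426, 0.423 and 0.423 of that of the large subunit in PBS and 0.426, 0.418 and 0.418 in 5-FU, so the groups overlapped. From CPM the ratio was 0.455, 0.453 and 0.453 in PBS and 0.449, 0.435 and 0.447 in 5-FU, where all 5-FU libraries lay below all PBS libraries. The difference between the subunits was not tested. TPM and counts did not always move together. Mrps5, whose product lies at the entry of the messenger RNA, stood at 46.2, 35.2 and 35.1 TPM in PBS and at 43.7, 42.9 and 34.2 TPM in 5-FU, a split that its counts (48.3, 51.6 and 48.8 CPM, then 46.7, 44.7 and 48.6 CPM) did not show. The TPM per CPM of Mrps5 varied 1.41-fold over the libraries, and that of the median member 1.06-fold. Its log2 fold change was -0.086 from counts and 0.055 on the log2(TPM + 1) scale, and neither was called.

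**Figure D4:**
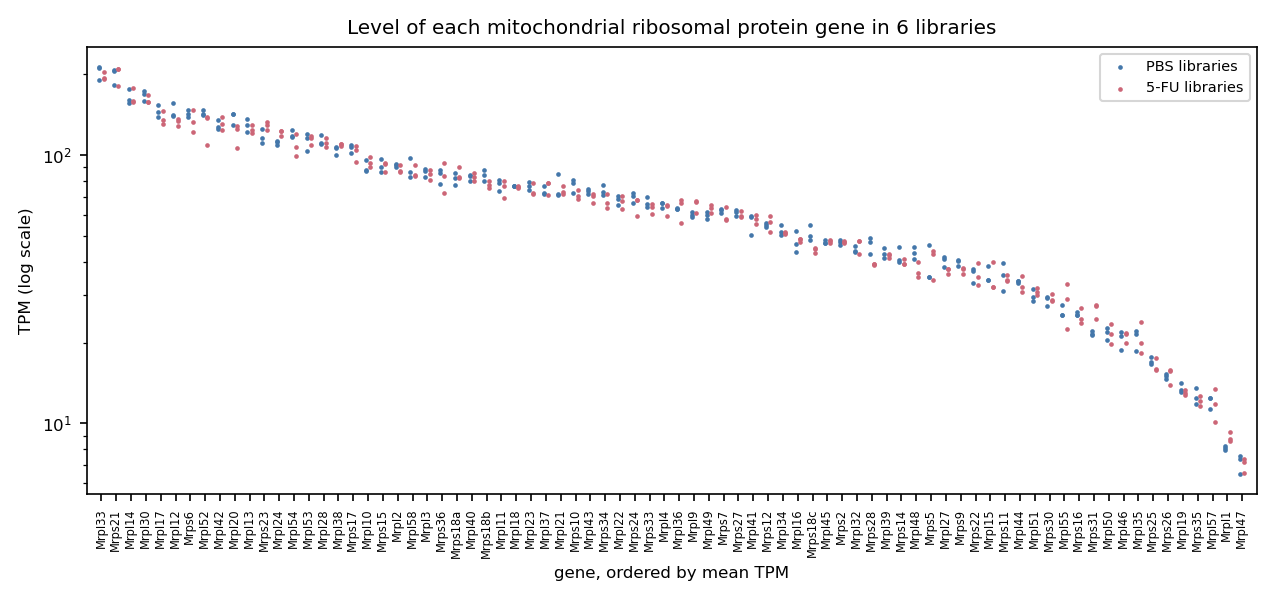
TPM of each of the 78 genes in the 3 PBS and 3 5-FU libraries (points, log axis), ordered by mean TPM from Mrpl33 at 200.4 to Mrpl47 at 7.08. Within a gene the points of both groups lie close together, and the span between genes is much wider.

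Transcription of such genes is known to depend in part on NRF1, on ETS factors such as GABP and on YY1. The windows of 250 bases upstream of the gene starts in RefSeq (GRCm38.p6) were therefore searched on both strands for GCGCA and GCGC with any base between them (NRF1), for CCGGAAG (ETS) and AAGATGGC (YY1), and 69 of 78 members had a window. Of their 75 windows 10 (13.3%) held the NRF1 letters, against 7.95% of the 12274 windows of tested genes and 3.74% of all 32851. The ETS letters stood in 18 (24%), against 13.5% and 6.91%, and the YY1 letters in 4 (5.33%), against 1.96% and 1.56%. The 10 members with the NRF1 letters had a median log2 fold change of -0.070 and the 59 without them -0.062. With the ETS letters the median was -0.071 (18 genes) and without them -0.058 (51 genes). For the YY1 letters the order was the other way, at -0.026 with them (4 genes) and -0.068 without them (65 genes). The windows of the members with the lowest p-values among those that had one are printed 5′ to 3′ with the matches in capitals, so that the gene that leaned upwards can be read beside those that leaned downwards. They are those of Mrps31 (chr8:22411090-22411339, plus strand), Mrps18c (chr5:100798509-100798758, plus strand), Mrpl20 (chr4:155802628-155802877, plus strand) and Mrpl12 (chr11:120484387-120484636, plus strand).
Mrps31: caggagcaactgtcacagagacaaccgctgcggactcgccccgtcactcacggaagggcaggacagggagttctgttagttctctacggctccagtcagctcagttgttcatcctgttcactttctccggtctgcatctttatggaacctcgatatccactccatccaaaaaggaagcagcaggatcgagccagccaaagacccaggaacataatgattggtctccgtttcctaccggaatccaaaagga
Mrps18c: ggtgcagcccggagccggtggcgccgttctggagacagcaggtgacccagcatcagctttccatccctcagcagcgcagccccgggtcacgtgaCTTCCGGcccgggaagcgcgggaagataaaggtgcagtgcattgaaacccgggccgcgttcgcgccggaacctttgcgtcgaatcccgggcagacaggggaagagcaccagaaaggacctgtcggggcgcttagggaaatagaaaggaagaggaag
Mrpl20: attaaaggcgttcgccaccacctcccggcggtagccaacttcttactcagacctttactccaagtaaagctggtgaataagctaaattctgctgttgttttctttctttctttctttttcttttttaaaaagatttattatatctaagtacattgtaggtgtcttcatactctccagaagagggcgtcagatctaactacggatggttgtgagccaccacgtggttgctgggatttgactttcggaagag
Mrpl12: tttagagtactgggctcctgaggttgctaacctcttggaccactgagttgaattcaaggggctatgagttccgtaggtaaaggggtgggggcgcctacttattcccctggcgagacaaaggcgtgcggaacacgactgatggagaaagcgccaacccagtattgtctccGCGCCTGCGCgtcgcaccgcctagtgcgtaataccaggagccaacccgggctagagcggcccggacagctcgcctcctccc
Mrps18c holds 1 match to the ETS letters and Mrpl12 1 match to the NRF1 letters, both on the reverse strand, so that the capitals are the reverse complement of the letters searched, while the windows of Mrps31 and Mrpl20 hold none of the 3. A match to letters does not show that a factor binds there.

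Around the members, the other genes of mitochondrial translation gave few calls. The 5 mitoribosomal subunits with other symbols gave 0 calls by edgeR (1 at an unadjusted p under 0.05) and 0 by DESeq2 and limma, with a median of -0.085. Ptcd3, a protein at the entry of the messenger RNA, was lowest at -0.27 (edgeR adjusted p = 0.0656), with 29.7 ± 2.0 CPM in PBS and 24.7 ± 2.2 CPM in 5-FU (SD, n = 3). Of 30 assembly factors edgeR called 0 (8 at an unadjusted p under 0.05, 3 higher and 5 lower), with a median of -0.0053. Of all genes tested 12.7% were higher and 11.1% lower at that level. DESeq2 and limma also called 0 of the 30, with 1 and 6 at an unadjusted p under 0.05. The pseudouridine synthase Trub2 had the lowest p (-0.19, edgeR adjusted p = 0.0576).

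Of 19 translation and transcript factors 1 rose, Mtrfr, a rescue factor for stalled ribosomes, from 15.2 ± 0.71 to 19.2 ± 1.3 CPM (SD, n = 3; log2 fold change 0.34, edgeR adjusted p = 0.0294). That call was lost without each of PBS replicates 1, 2 and 3 and 5-FU replicates 1 and 2. The list of mitochondrial tRNA synthetases held 22 genes, with Qrsl1, Gatb and Gatc of the tRNA amidotransferase counted in. Of the 22, 1 fell, Gars, which serves the cytosol as well, from 359 ± 4.5 to 299.5 ± 0.98 CPM (SD, n = 3; -0.26, edgeR adjusted p = 0.00263), and it was kept without each library. The medians of these lists were 0.016 and 0.0034, close to the 0.0012 of all genes. Over all genes tested 3.87% were called higher and 3.26% lower.

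Of the 13 mitochondrially encoded protein genes, whose messages this ribosome reads, 3 were called lower and none higher. They were mt-Nd3, of complex I (333 ± 14 to 262 ± 23 CPM, -0.35), mt-Atp8, of the ATP synthase (61.9 ± 5.1 to 47.4 ± 3.0 CPM, -0.38), and mt-Co3, of cytochrome oxidase (3753 ± 200 to 3299 ± 66 CPM, -0.19; SD, n = 3 throughout). Their edgeR adjusted p-values were 0.00789, 0.00873 and 0.0365. Over all genes tested 3.26% were called lower. The median of the 13 was -0.018, with 7 negative and 6 positive values. The other ATP synthase gene, mt-Atp6, stood at -0.083 with overlapping groups (edgeR adjusted p = 0.557). Transcripts of mt-Atp8 and mt-Nd3 are short, at 204 and 348 bases. Without PBS replicate 2 none of the 13 was called, and with the length and GC offsets but no replicate block none was. With those offsets and the block some were still called. Messages of these genes are cut from shared precursors, so the 13 are not independent.

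The cytosolic ribosomal proteins, which make the imported mitochondrial ones, leaned downwards by more: 77 of 79 were negative, with a median of -0.11, and 9 fell and none rose. Of all genes tested 49.7% were negative, 3.26% were called lower and 3.87% higher. Rps28 (-0.33), Rps20 (-0.30), Rps29 (-0.25) and Rpl38 (-0.25) fell most. Rps20 stood at 411 ± 10 CPM in PBS and 334 ± 16 CPM in 5-FU (SD, n = 3; edgeR adjusted p = 0.00386). Their 9 calls became 2 without PBS replicate 2 or 5-FU replicate 2, 4 without PBS replicate 3, 5 without PBS replicate 1 or 5-FU replicate 3, and 20 by DESeq2. Whether they differ from the mitochondrial set was not tested.

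**Figure D5:**
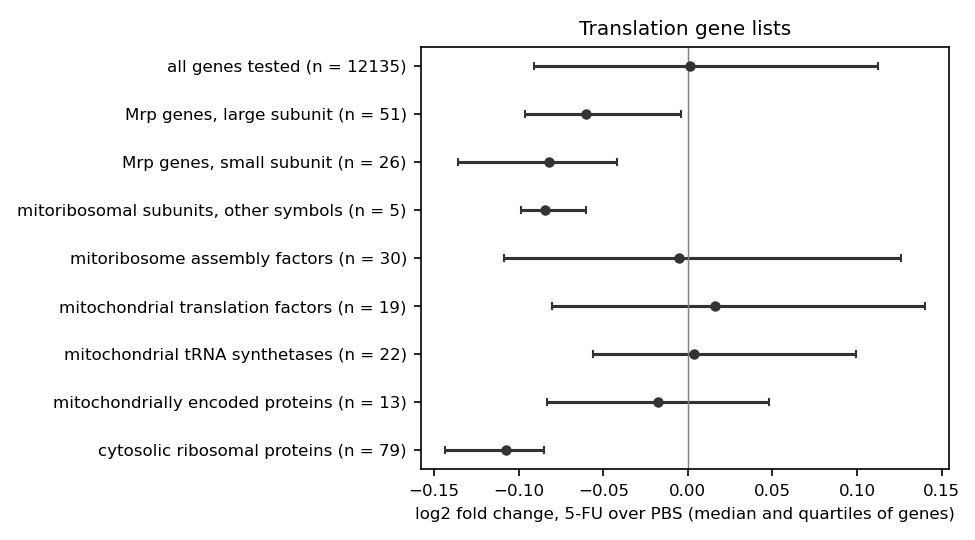
Median (points) and quartiles (bars) of the log2 fold change of 5-FU over PBS for each gene list and for all genes tested. Both subunits of the mitochondrial ribosome lie left of 0, at -0.060 and -0.082, between all genes at 0.0012 and the cytosolic ribosomal proteins at -0.11.

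Reading of neighbouring genes limits some single values. Exons of 33 of the 78 overlap another gene in GENCODE M21, and for 21 that gene is in the deposited table, as for Mrps34 and Nme3 on the same strand or Mrps11 and Mrpl46 on opposite strands. The assignment of reads in such overlaps is not stated, and these values are uncertain. In 13 members, Mrps34 and Mrpl24 among them, counts were not whole in every library. The authors' deposited table of 186 genes that they selected holds 0 of the 78.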

How the data were processed

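Messenger RNA of 6 C2C12 libraries, 3 per group by their titles, was analysed. Per the file headers, the authors deposited an estimated count and a TPM for each gene and library; the counts are not normalized, and TPM adds up to the same total in each library. The authors' deposited second table gives a log2 ratio and p-values for genes they selected. Of tools, the submitters' processing notes list StringTie 1.3.1 and do not say what it did. How reads were aligned and counted, and on which genome build, is not given in the sources used here.

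Counts were rounded to whole numbers and fitted in R 4.3.3 with edgeR 4.0.16 (TMM factors, filterByExpr with at least 10 counts, quasi-likelihood test, Benjamini-Hochberg adjustment over 12135 genes), with a call at an adjusted p under 0.05. CPM values use the deposited counts and TMM-scaled totals. Interval estimates cover 95% and use the fit's degrees of freedom. Transcript lengths are medians over the protein-coding transcripts of each gene in GENCODE M21 (over all its transcripts where it has none), which 99.9% of tested genes matched. The edgeR step was tested on simulated data. Since the labels do not say whether replicates were separate cultures, a p-value here may reflect technical spread alone.

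The members and lists were chosen with earlier results of these data known. Named genes were the 6 largest rises and 6 largest falls by log2 fold change, the 6 highest and 6 lowest by TPM, 15 with known places in the ribosome, and of each other list up to 4 called genes or the one with the lowest p; further members were named after their values were seen. Alternatives were DESeq2 1.42.0, RLE factors, library size alone, no filter, a block for the replicate number, limma 3.58.1 on log2(TPM + 1) and log2(TPM + 0.1) with a mean of at least 1 TPM or no filter, offsets for length and GC content with and without the block, an adjusted p under 0.1, and leaving out each library.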

Additional observations from a re-analysis of the deposited data

How the results depend on the processing

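The count of 0 called members held in 10 of 17 alternatives. It was 1 with the replicate block (Mrps28), 1 with limma on TPM with either pseudocount (Mrps31), 2 with length and GC offsets (Mrps31 and Mrpl12), 5 with those offsets and the replicate block, 5 at an adjusted p under 0.1 (13.2% of all genes), and 0 to 1 without 1 library. The median of the members stayed negative in all 16 refits, between -0.10 without PBS replicate 1 and -0.040 without PBS replicate 3 among refits without 1 library, and at -0.030 with limma on TPM, where the median of all genes was 0.037. The pairing of same-numbered libraries is not settled: their deviations from the group means correlated at -0.0016, 0.087 and 0.13 for numbers 1, 2 and 3, which is over 0.1 for number 3 alone. PBS replicates 2 and 3 correlated best with their own number, as a hint from the data, and PBS replicate 1 with 5-FU replicate 2 (0.019). Of the 12135 genes tested 1199 were called with the block, 1027 with offsets, and 1655 with offsets and block. All-gene calls numbered 866, 528 and 513 with limma on TPM (64.8% and 65.1% higher, against 54.3%), 156 without its filter, 1605 at an adjusted p under 0.1, and 249 to 656 without 1 library.

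Calls among cytosolic ribosomal proteins numbered 9, 20 by DESeq2, 3 with limma on TPM at either pseudocount and 1 without its filter, 15 with offsets and block, 22 at an adjusted p under 0.1, and 2 to 7 without 1 library. Mitochondrially encoded messages gave 3, 0 with limma without filter, 0 with offsets but no block, and 0 to 3 without 1 library. Translation factors gave 1, 2 with the block, 3 at an adjusted p under 0.1, 0 with limma without filter, and 0 to 1 without 1 library. The synthetase list gave 1, and 2 with limma on TPM at either pseudocount.

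Of 37 named members 25 kept their sign in all 16 alternatives. Signs turned in the other 12, whose log2 fold changes ran from -0.086 for Mrps5 to 0.084 for Mrpl35. With limma on log2(TPM + 1), with or without filter, and then with a pseudocount of 0.1, signs turned for Mrpl35 (-0.0014 and -0.0017), Mrps21 (0.0087 and 0.0087), Mrpl14 (0.0091 and 0.0091), Mrps26 (0.012 and 0.012), Mrpl45 (0.0093 and 0.0095), Mrps2 (0.0030 and 0.0031), Mrps5 (0.055 and 0.056) and Mrps12 (0.019 and 0.020). With offsets, and then with offsets and block, they turned for Mrps21 (0.00073 and 0.0014) and Mrps22 (0.011 and 0.0050). Without 1 library they turned for Mrpl55 (-0.068 without 5-FU replicate 1 to 0.19 without 5-FU replicate 2), Mrps21 (-0.12 to 0.020), Mrpl14 (-0.097 to 0.039), Mrps26 (-0.064 to 0.035), Mrps22 (-0.13 to 0.023), Mrpl57 (-0.18 to 0.027), Mrps35 (-0.068 to 0.012) and Mrps12 (-0.073 to 0.030). The causes were not tested. With 3 libraries per group even Mrps28 (-0.28) and Mrps31 (0.25) did not pass, so changes of that size could go uncalled.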
